A study of Sus scrofa with 3 samples.

Results

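The miR-181 family was followed in small RNA libraries from the liver of 3 breeds of pig. MicroRNAs (miRNAs) are short RNAs that guide the silencing of messenger RNAs through a seed near their 5′ end, and the mature 5p forms of miR-181a, miR-181b, miR-181c and miR-181d are known to share 1 seed. The family is best known from lymphocytes, where miR-181a sets the sensitivity of the T cell receptor and promotes B cell development. In endothelium miR-181b dampens NF-kB signalling by lowering an importin that carries NF-kB into the nucleus. In liver, the family is known from progenitor-like cells and from TGF-beta signalling.

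Members were chosen by name, as every entry called miR-181a, miR-181b, miR-181c or miR-181d with or without an arm ending. This gave 5 miRNAs out of 405 in the tables, on 7 of 486 deposited pairs of miRNA and precursor. The 5 are ssc-miR-181a, ssc-miR-181b, ssc-miR-181c, ssc-miR-181d-5p and ssc-miR-181d-3p, written without the pig prefix from here on. Of these, 4 passed the expression minimum, a mean of at least 10 CPM (counts per 1000000 reads of the library total) over the 3 libraries, and miR-181d-3p was listed at 0 reads in all of them.

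The libraries were made from male pig liver taken 90 days after birth, with 1 library for each breed. Enshi black is a domestic breed from China, Large White a commercial breed of European origin, and the third group is Chinese wild boar. No treatment or altered gene is given, and the labels speak of 3 male pigs without saying whether a library is 1 animal. With 1 library per breed there is no replicate, so no p-value was computed, and a difference between libraries includes any difference between animals. Each interval is an exact 95% interval for the counting error of reads alone, and covers no spread between animals. The reads carry no molecular identifiers, so copies of 1 molecule count as separate reads, which the intervals do not allow for.

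The counts used summed to 7730944 reads for Enshi black, 7343045 for Large White and 7824848 for wild boar. The hepatocyte miRNA miR-122 held 342067, 414018 and 394958 CPM of the library total in that order, the most of any miRNA in each. Because it and a few other miRNAs take so many reads, levels were scaled with trimmed mean of M-values (TMM) factors of 1.20, 0.772 and 1.08. Library totals without that factor are given beside them for the members, the family sum and some of the lists. Sums of the other lists are given TMM-scaled only. Calls of higher or lower needed a 2-fold difference and an interval on 1 side of 1. In bulk tissue, fewer cells of a type and less RNA per cell cannot be told apart.

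The family is made from 6 precursors in the deposited tables. miR-181a is listed on mir-181a-1 and mir-181a-2, and miR-181b on mir-181b-1 and mir-181b-2, while miR-181c and miR-181d have a precursor each. In the RefSeq gene table of the Sscrofa11.1 assembly the 6 genes form 3 pairs of direct neighbours. MIR181A-1 lies next to MIR181B-1, MIR181A-2 next to MIR181B-2, and MIR181D next to MIR181C, whose other neighbour is MIR23A. The build named in the submitters' processing notes is Sscrofa10.2, so no coordinates of that table are given.

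miR-181a, the form known for tuning T cell receptor signalling, was the most abundant member in each library. It had 76618 reads for Enshi black, 33272 for Large White and 78646 for wild boar. These correspond to 8248, 5866 and 9328 TMM-scaled CPM in the same order. It was the 18th most abundant miRNA of the 311 with a count in the Enshi black library, the 26th of 304 in the Large White and the 18th of 307 in the wild boar. The Large White level thus lay below both others, which were closer to each other.

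miR-181b, the member linked to NF-kB in endothelium, had 16203 reads for Enshi black, 6602 for Large White and 14034 for wild boar. Its TMM-scaled levels were 1744, 1164 and 1665 CPM in that order, and its places in the 3 libraries were the 51st, the 60th and the 48th. As for miR-181a, the Large White library was lowest. The top library, however, was the Enshi black for miR-181b and the wild boar for miR-181a.

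The members of the remaining gene pair were scarce. miR-181c had 1406, 759 and 1283 reads in the libraries of Enshi black, Large White and wild boar, which is 151, 134 and 152 CPM after TMM scaling. miR-181d-5p had 839, 533 and 664 reads, which is 90.3, 94.0 and 78.8 CPM. On this scale miR-181c was again lowest in the Large White library, while miR-181d-5p was highest there. The order miR-181a, miR-181b, miR-181c, miR-181d-5p was the same in every library.

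For miR-181d-3p, the partner strand of miR-181d-5p, a count of 0 allows up to 0.323 CPM for Enshi black, 0.529 for Large White and 0.356 for wild boar (3 counts over the TMM-scaled total). miR-181d is the only family gene with both arms among the member names, so strand use could be read for it alone, and all of its reads were on the 5p side. The summed family reached 10233 CPM for Enshi black, 7258 for Large White and 11224 for wild boar. That is 1.23%, 0.561% and 1.21% of all reads used, so on library totals the Enshi black and wild boar libraries change places.

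**Figure D1:**
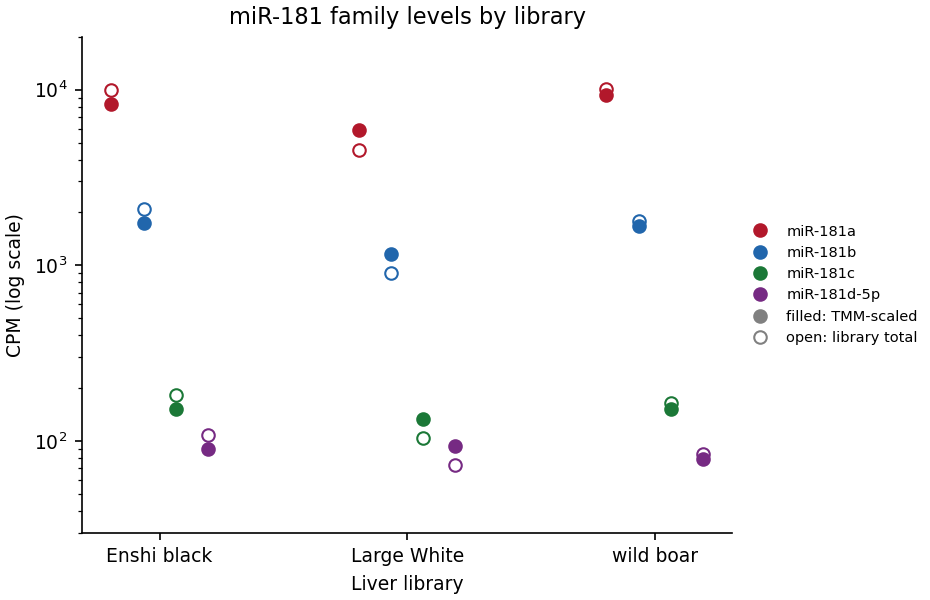
Level of each miR-181 member in the 3 liver libraries, in CPM on a log axis, where filled points are TMM-scaled and open points are scaled to the library total, with 1 library per breed and therefore no error bars. The members keep 1 order in every library, and the Large White points move the other way from the rest when the scaling changes, so that miR-181d-5p is highest in the Large White library on the filled points and lowest there on the open points.

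In the Enshi black library miR-181a and miR-181b stood above the Large White library, while miR-181c and miR-181d-5p were close to equal in both. miR-181b was 1.498-fold higher for Enshi black (interval 1.46 to 1.54) and miR-181a 1.41-fold higher (1.39 to 1.42). miR-181c was 1.13-fold higher (1.03 to 1.24). miR-181d-5p had a log2 ratio of −0.057 with an interval from −0.22 to 0.10, so it could not be told from equal on this scale. On library totals its log2 ratio was 0.58 (0.42 to 0.74). The summed family was 1.41-fold higher (1.39 to 1.43).

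None of the 4 members reached 2-fold in this pair, in which 6 of 208 miRNAs (2.88%) were called higher in the Enshi black library and 21 (10.1%) lower. The members' median log2 ratio was 0.34, and that of all 208 miRNAs −0.039. Their place among all ratios does not depend on the scaling, since 1 factor moves all ratios of a pair together. From the highest ratio down, miR-181b was the 32nd, miR-181a the 40th, miR-181c the 79th and miR-181d-5p the 108th of 208. The abundant members thus sat in the upper part of the order and miR-181d-5p near its middle.

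The scaling decided whether the abundant members passed 2-fold. On library totals miR-181b was 2.33-fold and miR-181a 2.19-fold higher in the Enshi black library, and both were called. On that scale 57 of 208 miRNAs (27.4%) were called higher and 6 (2.88%) lower, so these calls fell among many. miR-181c was 1.76-fold and miR-181d-5p 1.495-fold higher there, under 2-fold. The summed family was 2.19-fold higher (2.17 to 2.22) and so also passed 2-fold. The TMM factors shifted all log2 ratios by −0.64 in this pair, by −0.48 for wild boar over Large White and by −0.16 for Enshi black over wild boar.

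The wild boar library also held more miR-181a and miR-181b than the Large White library, in the other order of size. miR-181a was 1.59-fold higher for wild boar (1.57 to 1.61) and miR-181b 1.43-fold higher (1.39 to 1.47). miR-181c was 1.14-fold higher (1.04 to 1.25). miR-181d-5p went the other way and was 1.19-fold higher for Large White (1.06 to 1.34). The summed family was 1.55-fold higher for wild boar (1.53 to 1.56).

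Again no member reached 2-fold, where 24 of 208 miRNAs (11.5%) were called higher in the wild boar library and 28 (13.5%) lower. The members' median log2 ratio was 0.35 against −0.018 over all 208. miR-181a was the 37th from the top of the order, miR-181b the 46th, miR-181c the 80th and miR-181d-5p the 131st. From lowest to highest the members spanned 0.92 on the log2 scale, and the standard deviation (SD) over all 208 ratios was 0.96. A range and an SD are unlike measures, so these values do not show how closely the members agree. The Large White library serves in this pair and in the one before it, so the 2 sets of ratios are not independent.

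On library totals miR-181a was 2.22-fold higher for wild boar and was called, beside 45 of 208 miRNAs (21.6%) called higher and 19 (9.13%) lower. miR-181b stood at 1.99-fold (1.94 to 2.05), at the edge of the rule. The summed family was 2.16-fold higher (2.13 to 2.18), past 2-fold as well. On that scale miR-181d-5p turned to 1.17-fold higher for wild boar (1.04 to 1.31). Its direction against the Large White library therefore depends on the scaling, while those of miR-181a, miR-181b and miR-181c were the same under all 4 scalings tried.

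Between the Enshi black and wild boar libraries each member was within 1.15-fold after TMM scaling. miR-181a was 1.13-fold higher for wild boar (1.12 to 1.14) and miR-181b 1.05-fold higher for Enshi black (1.02 to 1.07). miR-181c had a log2 ratio of −0.008 (−0.12 to 0.10), with no detectable difference on this scale. Its sign turned under the other scalings, with 0.149 (0.039 to 0.26) on library totals. miR-181d-5p was 1.15-fold higher for Enshi black (1.03 to 1.27). The summed family was 1.10-fold higher for wild boar (1.09 to 1.11) after TMM scaling and 1.02-fold higher in the Enshi black library on library totals.

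No member reached 2-fold in this pair on either scale. After TMM scaling 13 of 208 miRNAs (6.25%) were called higher and 13 (6.25%) lower in the Enshi black library, and on library totals 15 (7.21%) and 7 (3.37%). The members' median log2 ratio was 0.030, and that of all 208 miRNAs −0.006. miR-181d-5p was the 71st from the top, miR-181b the 95th, miR-181c the 105th and miR-181a the 135th. That order differs from the one against the Large White library, where the abundant members led.

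**Figure D2:**
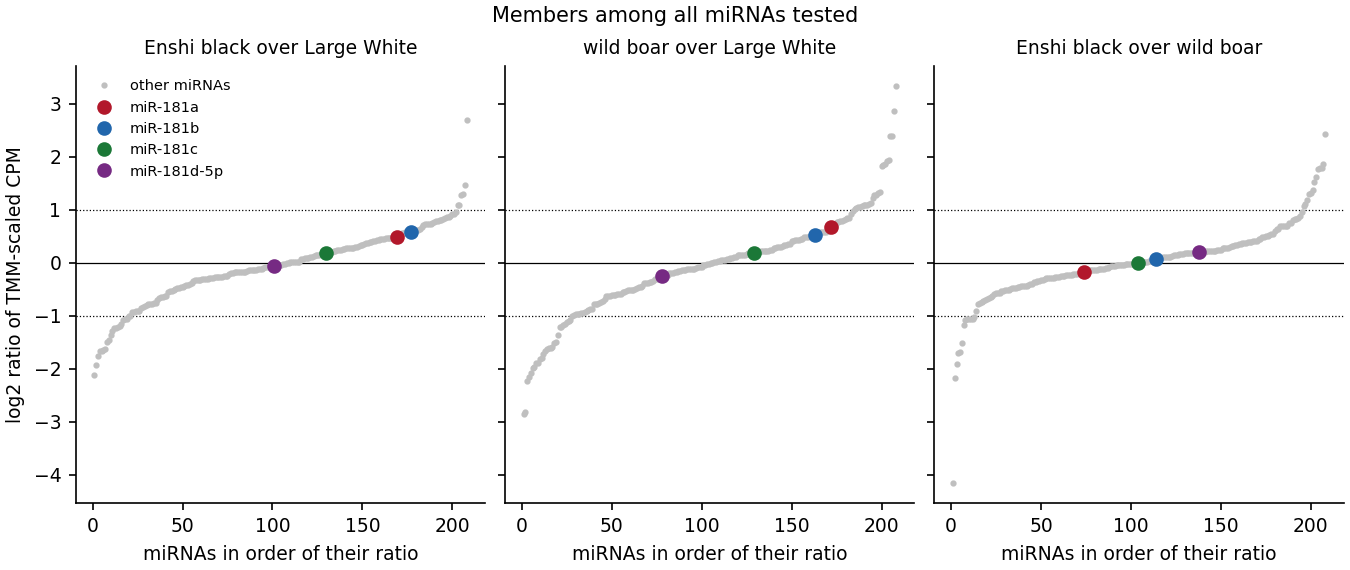
Each panel orders the 208 miRNAs by the log2 ratio of TMM-scaled CPM between 2 libraries, with the 4 miR-181 members coloured and the dotted lines at 2-fold. In both panels against the Large White library miR-181a and miR-181b lie well to the right (between the 32nd and 46th from the top) and under the 2-fold line, with miR-181d-5p at or below 0, while in the panel of Enshi black over wild boar all 4 lie near 0 (on library totals miR-181d-5p would lie above 0 in each panel, at 0.58, 0.23 and 0.36).

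The make-up of the family within a library does not depend on the scaling between libraries. miR-181a held 80.6% of the family reads for Enshi black (80.3 to 80.8), 80.8% for Large White (80.4 to 81.2) and 83.1% for wild boar (82.9 to 83.3). The first and second of these overlapped, and the wild boar share was above both. miR-181b took 17.0% (16.8 to 17.3), 16.0% (15.7 to 16.4) and 14.8% (14.6 to 15.1) in the same order, with no overlap between any of the 3 intervals. Per read of miR-181b there were 4.73 reads of miR-181a for Enshi black, 5.04 for Large White and 5.60 for wild boar.

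The gene pair MIR181C and MIR181D weighed most in the Large White library. miR-181c and miR-181d-5p together made up 3.14% of the family reads there (2.97 to 3.31), against 2.36% for Enshi black (2.27 to 2.46) and 2.06% for wild boar (1.97 to 2.15). miR-181d-5p alone went from 0.702% in the wild boar (0.6495 to 0.757) and 0.883% in the Enshi black (0.824 to 0.944) to 1.29% in the Large White library (1.19 to 1.41). miR-181c had 1.36%, 1.48% and 1.84% in that order, and its intervals in the wild boar and Enshi black libraries (1.28 to 1.43 and 1.40 to 1.56) overlapped. Per read of miR-181d-5p there were 118 reads of miR-181a in the wild boar, 91.3 in the Enshi black and 62.4 in the Large White library. Differences of this size carry no estimate of how much animals of 1 breed vary.

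**Figure D3:**
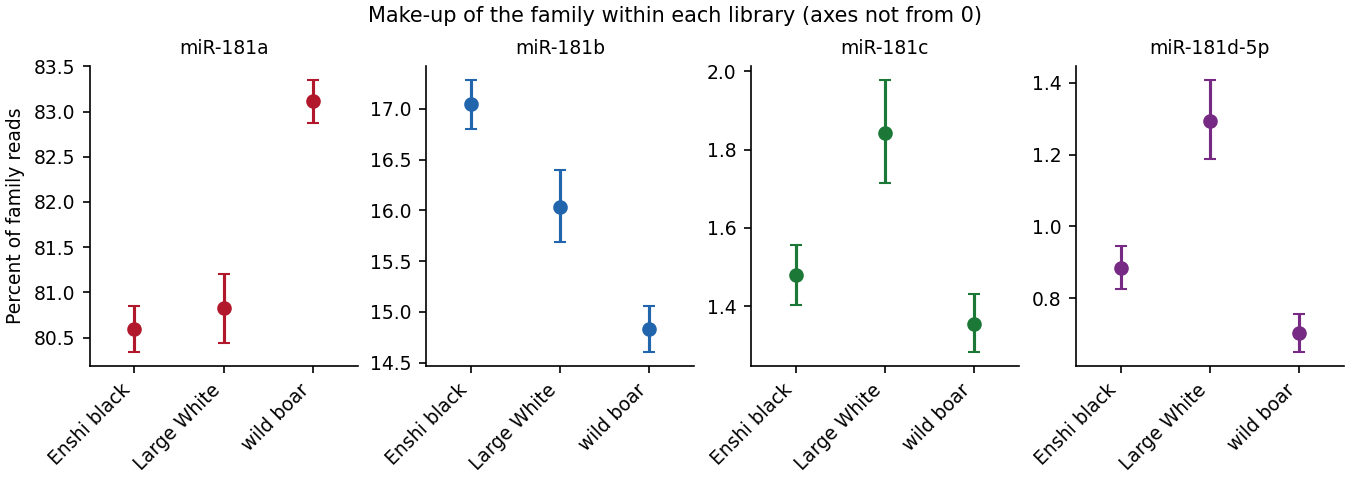
Percent of the family reads held by each member in the 3 libraries, with exact Clopper-Pearson 95% intervals, on axes that do not start at 0. The Large White library has the highest shares of miR-181c (1.84%) and miR-181d-5p (1.29%), the Enshi black the highest share of miR-181b (17.0%) and the wild boar the highest share of miR-181a (83.1%).

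The deposited counts of miR-181a were almost equal on its precursors, which carry the same mature name. Reads that match several rows are divided among them, so these counts do not show how much each precursor was used. mir-181a-1 exceeded mir-181a-2 by 4 reads for Enshi black, 1 for Large White and 1 for wild boar. For miR-181b, mir-181b-2 exceeded mir-181b-1 by 1542, 753 and 959 reads, which is 9.52%, 11.4% and 6.83% of the miR-181b reads. The excess was thus present in each library and its share was lowest in the wild boar. It is a net value, so no interval was given, and the files do not show which bases set those reads apart.

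Some family reads were divided among rows. Fractions stood on 2 of the 7 family rows in the Enshi black library and on 5 in each of the other libraries. The family sums, 95066, 41166 and 94627 reads, were within 0.01 of a whole number. The split between members with fractions therefore depends on the authors' counting, while the sum did not show a part of a read assigned elsewhere.

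The leucocyte miRNAs had another order over the libraries than the family. Of the leucocyte list (miR-142-3p, miR-142-5p, miR-150, miR-155, miR-223 and miR-146a), 5 of 6 entries are in the tables. Their summed level was 10877 CPM for Enshi black, 20807 for Large White and 3651 for wild boar after TMM scaling. The sum was therefore highest in the Large White library, where the family was lowest, and lowest in the wild boar library, also on library totals (13070, 16071 and 3933 CPM). It was mostly miR-142-3p, with 8054, 16873 and 2346 TMM-scaled CPM. Each of the 5 entries was lowest in the wild boar library on either scale. The order of the other 2 libraries depended on the entry and the scaling: after TMM scaling 4 of 5 were highest for Large White (miR-150 was not), and on library totals miR-142-3p alone was. The median log2 ratio of the 5 for Enshi black over Large White was accordingly −0.56 after TMM scaling and 0.082 on library totals.

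For each 100 reads of miR-142-3p, which marks cells of the blood lineage, there were 127 family reads for Enshi black (126 to 128), 43.0 for Large White (42.5 to 43.5) and 478 for wild boar (471 to 486).

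Other cell type lists moved as well. The endothelial list (miR-126-3p, miR-126-5p, miR-23a, miR-27a and miR-10a, all 5 in the tables) summed to 20094, 12387 and 15036 CPM in the libraries of Enshi black, Large White and wild boar, lowest in the Large White library as the family was. Family reads per 100 reads of miR-126-3p, the more abundant arm of the endothelial miR-126, were 71.7 (71.1 to 72.3), 81.3 (80.2 to 82.3) and 110 (109 to 111). The place of the Large White library depends on the arm. Over the Large White library miR-126-5p had log2 ratios of 0.80 for Enshi black and 0.79 for wild boar. Those of the family sum were lower, at 0.50 and 0.63. Against miR-126-5p the Large White library therefore held the most family reads. The smooth muscle and stellate list (miR-143, miR-145, miR-199a and miR-214, all 4 in the tables) summed to 42462, 31562 and 34011 CPM. Both lists were thus lowest in the Large White library, and their part in the family's levels was not tested.

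The hepatocyte list (miR-122, miR-885, miR-192 and miR-194a, all 4 in the tables) summed to 341596, 657123 and 439701 CPM after TMM scaling, highest in the Large White library. For each 100 reads of miR-122 there were 3.59 family reads for Enshi black (3.57 to 3.62), 1.35 for Large White (1.34 to 1.37) and 3.06 for wild boar (3.04 to 3.08). The red cell list (3 of 3 entries, led by miR-451 and miR-144) summed to 4114, 5324 and 3114 CPM. Its entries differed, and miR-144 peaked for Large White under both scalings, with 799, 1187 and 446 CPM on library totals. miR-451 (3318, 3641 and 2556 TMM-scaled CPM) peaked there with TMM factors only. So did miR-486 (132, 147 and 145), which was near level for Large White and wild boar. The Large White library thus held the highest hepatocyte sum on either scale and least miR-181. Of the hepatocyte entries, miR-194a by itself was level for Large White and wild boar on library totals, at 41201 and 41381 CPM. The red cell sum was highest for Large White with TMM factors only, and on library totals it was 4944, 4112 and 3356 CPM. Striated muscle miRNAs (4 of 4 entries) summed to 229, 394 and 176 CPM (miR-499, miR-1, miR-133a and miR-206) and neural ones (3 of 3; miR-7, miR-9 and miR-124a) to 347, 642 and 264 CPM. The neural sum was mostly miR-7 (288, 580 and 165 CPM), while miR-9 (59.2, 61.5 and 89.7) and miR-124a (0.11, 0 and 9.61) were highest in the wild boar library, where the sum was lowest. The biliary list had 1 of 4 entries in the tables, miR-429, at 13.7, 10.4 and 12.7 CPM. No listed marker was at 0 in all 3 libraries, miR-124a was at 0 in the Large White library, and the part of these cell types in the family's differences was not tested.

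**Figure D4:**
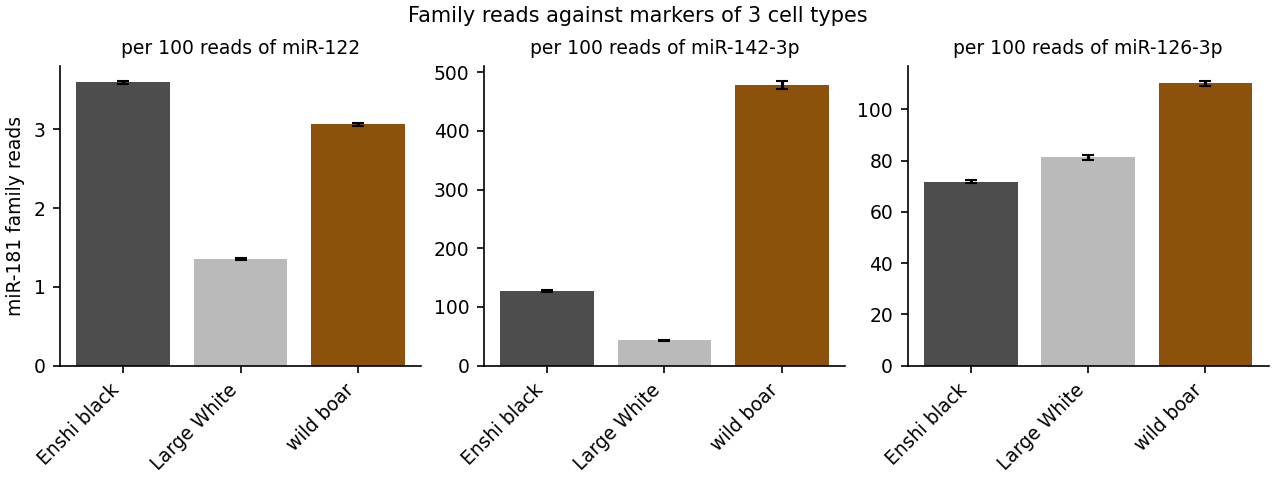
Reads of the miR-181 family per 100 reads of the hepatocyte miR-122, the leucocyte miR-142-3p and the endothelial miR-126-3p within each library, as bars from 0 with exact 95% intervals. The Large White bar is the lowest against miR-122 (1.35) and miR-142-3p (43.0), but lies between the others against miR-126-3p (81.3). That last place depends on the arm, and against miR-126-5p, which is not drawn, the Large White library would be highest.

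A list of miRNAs known from lymphocytes and NF-kB signalling had 11 of 12 entries in the tables. Of these, 1 was called higher and 1 lower for Enshi black against Large White, where 2.88% and 10.1% of all 208 miRNAs were. The median log2 ratio was −0.067. The higher one was miR-146b and the lower one miR-142-3p. In the wild boar against the Large White library none was higher and 6 of 11 were lower, with a median of −1.12, beside 11.5% higher and 13.5% lower among all 208. Between the Enshi black and wild boar libraries 5 of 11 were higher in the Enshi black and none lower, with a median of 0.69, beside 6.25% in each direction among all 208. The 4 most abundant, miR-21, miR-125b, miR-142-3p and miR-92a, had log2 ratios of wild boar over Large White of −1.17, 0.051, −2.85 and 0.84, against 0.67 for miR-181a.

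That list shares 6 of its 12 entries with the leucocyte list (5 of them in the tables), miR-9 with the neural list and miR-21 with the list that follows. On library totals it had 2 higher and 0 lower (median 0.57) for Enshi black against Large White, where all 208 had 27.4% higher and 2.88% lower. For wild boar against Large White it had 2 higher and 3 lower on that scale (median −0.64), beside 21.6% and 9.13%. The list of TGF-beta and liver fibrosis miRNAs, with 11 of 12 entries found, lay nearer to 0 after TMM scaling. It holds all 4 entries of the smooth muscle and stellate list and miR-192 of the hepatocyte list, so it is not separate from them. It had none higher and 2 lower for Enshi black against Large White (median −0.036), and the same counts for the wild boar (median 0.023). With 10.1% and 13.5% of all 208 called lower in these pairs, 2 of 11 is near the share over all miRNAs. Its most abundant members miR-192, miR-21, miR-143-3p and miR-29a stood at −1.23, −0.48, 0.43 and −0.086 on the log2 scale for Enshi black over Large White, against 0.49 for miR-181a and 0.58 for miR-181b. The negative values of miR-21 and miR-29a turned on library totals, with miR-21 at 47939 CPM for Enshi black and 43032 for Large White and miR-29a at 28438 and 19408. On library totals its medians became 0.60, with 2 higher and 0 lower, and 0.50, with 1 higher and 1 lower, against the same shares over all 208 as for the list before. After TMM scaling neither list had a member past 2-fold in the direction of miR-181a in the pair of wild boar over Large White. miR-181a itself was under 2-fold there, at 0.67. miR-92a (0.84) of the lymphocyte list and miR-221-3p (0.76) of the fibrosis list lay above it, and their other entries below. With 11.5% of all 208 called higher, none of 11 is near the share over all miRNAs. On library totals the lists had 2 and 1 past 2-fold, beside 21.6% of all 208.

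The miRNAs most like each main member over the 3 libraries were sought among those with a mean of at least 100 CPM, 129 others in all. The measure was the root mean square distance between log2 TMM-scaled levels after each miRNA was centred on its own mean. Nearest to miR-181a was miR-199b-5p at 0.044, with 1040 CPM for Enshi black, 748 for Large White and 1109 for wild boar. miR-130a (0.075), miR-99b (0.078), miR-361-5p (0.082) and miR-128 (0.090) followed, and the median over all 129 was 0.34. miR-181b was the 7th in this order, at 0.10, and miR-181c the 33rd, at 0.20.

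Nearest to miR-181b was miR-23a, at a distance of 0.035 and with 1021, 677 and 923 CPM in the libraries of Enshi black, Large White and wild boar. Its gene is the neighbour of MIR181C in the RefSeq table, not of a miR-181b gene, and miR-181c itself was only the 25th in this order, at 0.18. miR-130a (0.049), miR-100 (0.050), miR-99b (0.060) and miR-199b-5p (0.066) came next, with a median of 0.35 over all 129. miR-181a was the 12th. The nearest sets of miR-181a and miR-181b shared 3 of 5 miRNAs, namely miR-130a, miR-99b and miR-199b-5p. With only 3 libraries, many miRNAs can take a like profile, so the distances are a description. Of the 7 miRNAs named as nearest, miR-199b-5p in all 3 libraries, miR-130a in 2 and miR-23a and miR-100 in 1 hold reads divided with another name, seen as sums more than 0.05 from a whole number.

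**Figure D5:**
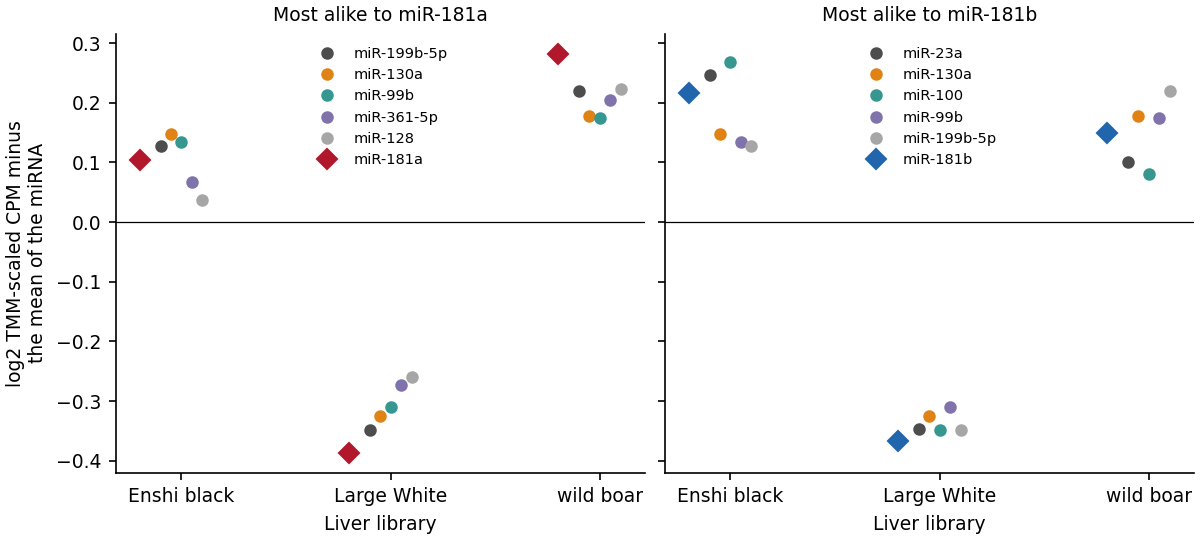
log2 TMM-scaled level minus the mean of each miRNA over the 3 libraries, for miR-181a (left, diamond) and miR-181b (right, diamond) and the 5 miRNAs nearest to each. In both panels all points lie below 0 in the Large White library and above 0 in the others, and the diamond is highest in the wild boar library on the left and in the Enshi black library on the right.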

How the data were processed

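The deposited files give expected counts per pair of mature miRNA and precursor, per the file headers, with fractions where reads match several rows. They also give RPM, which is the deposited count per 1000000 of the library's sum and was not used. Per the submitters' processing notes the build was Sscrofa10.2, and the tools for mapping and counting are not stated there. The plan allowed for whole or expected counts, so the deposited expected counts were summed over precursors and then rounded. Rows of 6 names that repeated the reads of another name were left out. TMM factors came from edgeR 4.0.16 in R 4.3.3. Ratios between libraries have exact conditional-binomial intervals and shares exact Clopper-Pearson intervals.

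Data were simulated for wild boar over Large White with counting noise only, with every library drawn from the Large White profile. On these the 2-fold rule called 18 of 18 miRNAs made 4-fold higher, 0 of 18 made 1.5-fold higher and 0 of 162 left equal, of 198 in all. With counting noise only and folds away from the threshold, another outcome was unlikely, so this checks the working of the rule and little more. Apart from those folds the simulated libraries share 1 profile, so they do not test the scaling between libraries that differ as these do. The members, the marker and pathway lists and the named miRNAs were chosen with earlier results of these data known. All members were named, with the 5 miRNAs nearest to miR-181a and to miR-181b and up to 4 of the most abundant entries of each list. Where a list named no arm, the arm with more reads was used. Alternatives were library totals, totals without miR-122, DESeq2 1.42.0 size factors, thinning, other expression minimums and a 1.5-fold threshold. Mature sequences were not used here.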

Additional observations from a re-analysis of the deposited data

How the results depend on the processing

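The log2 ratios of Enshi black over Large White for the family sum, miR-181a and miR-181b were 1.13, 1.13 and 1.22 on library totals, 0.97, 0.96 and 1.05 on totals without miR-122, and 0.57, 0.57 and 0.66 with DESeq2 size factors. For wild boar over Large White they were 1.11, 1.15 and 0.996, then 1.06, 1.10 and 0.95, then 0.68, 0.72 and 0.57. For Enshi black over wild boar they were 0.024, −0.020 and 0.23, then −0.097, −0.14 and 0.10, then −0.11, −0.155 and 0.090. The family sum thus changed its direction on library totals. Thinning moved none of these 9 ratios beyond its counting interval. It went only to the smallest total, 7343045 reads, which is close to the other totals, and kept the TMM factors. Little movement was therefore possible. With DESeq2 size factors miR-181d-5p had 0.018 for Enshi black over Large White and −0.20 for wild boar over Large White. It was 0.41 and 0.18 on totals without miR-122.

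The miRNAs at least 2-fold higher and lower in Enshi black over Large White were 57 and 6 on library totals, 37 and 8 without miR-122, 13 and 39 with no expression filter, 1 and 12 at a minimum of 100 CPM, and 31 and 41 at 1.5-fold. For wild boar over Large White 45 were higher on library totals and 43 without miR-122, with 19 lower on each. The pairs were 38 and 47 with no filter, 13 and 18 at 100 CPM, and 40 and 55 at 1.5-fold. For Enshi black over wild boar 7 were lower on library totals, and the pairs were 21 and 29, 6 and 8, and 29 and 24 under the same filters and threshold. Fewer or more miRNAs tested, or a lower bar, set the last 3 by construction. With DESeq2 size factors the pairs stayed near the TMM counts, at 7 and 17, 25 and 27, and 13 and 13 in the same order of comparisons.

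Without the reads by which mir-181b-2 exceeded mir-181b-1, an alternative chosen after seeing the data, miR-181b held 15.7% of the family reads for Enshi black, 14.5% for Large White and 13.96% for wild boar, in the same order as before. Leaving out rows with fractions gave no value, since both miR-181b rows hold fractions in each library. The arm shares planned for miR-181a were not run, since only 1 arm is listed for it. No paired analysis was possible because each breed has 1 library. Depth limits miR-181c and miR-181d-5p most.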
